A study of Danio rerio with 2 samples.

Results

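Primitive red blood cells of the zebrafish embryo arise from lateral mesoderm that also gives rise to vascular endothelium, and their programme was followed here in single cells through 8 genes: the erythroid regulators gata1a, klf17 and blf, the haem synthesis genes alas2, urod and fech, the transferrin receptor gene tfr1a and the anion exchanger gene slc4a1a. They were looked up by gene name or identifier. All 8 were found among the 27931 genes of the expression table, and all 8 were among the 15147 genes that exceeded 1 TPM (a transcript abundance scaled by transcript length and by the total of the cell) in at least 5 cells. That limit was only just met by slc4a1a, which exceeded 1 TPM in 5 of the 96 cells, 4 of them in population 1. tfr1a exceeded 1 TPM in 8 cells, 5 of them in population 1. Both genes thus passed only with the cells of population 1, and their higher level there is not independent of the limit.

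GFP-positive cells were sorted from untreated Tg(-2.3 etv2:GFP)zf372 embryos, a line in which a fragment of the etv2 promoter drives GFP, and were captured on the Fluidigm C1 system. The labels give 28.5 °C as the temperature of the embryos, while the study's methods describe a lower temperature for part of the time at young stages, so that the temperature history of these embryos is not known exactly. There were 48 cells from embryos of 15-18 somites and 48 from embryos of 20 somites, and each stage was 1 sample made from pooled embryos. The cells had been divided into 8 populations by the study, whose names are used here: erythrocytes (population 1, 2 and 3 cells at the earlier and later stage), epithelial (population 2, 6 and 4), tailbud (population 3, 14 and 14), endothelial progenitor cells or EPC (population 4, 8 and 6), venous (population 5, 4 and 4), arterial (population 6, 10 and 3), EC2 (population 7, 2 and 5) and macrophages (population 8, 2 and 9). Each stage was captured on its own day and chip, so that stage, day and chip cannot be told apart, and with 1 sample per stage no test between stages or populations was possible. The populations were clustered from the expression of these same cells, and a difference of population 1 from the rest is therefore a description.

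In vertebrates, the zinc finger factor Gata1 binds and activates most genes of the red cell programme, and Krüppel-like factors act with it. Developing red cells take up transferrin-bound iron through the transferrin receptor, carry it into mitochondria and insert it into protoporphyrin made by a chain of enzymes that begins with aminolevulinate synthase, encoded in red cells by alas2, and ends with ferrochelatase, encoded by fech. The haem is bound by globins, while the band 3 anion exchanger, encoded by slc4a1a, moves chloride and bicarbonate across the membrane. Mutations of alas2, urod, tfr1a, slc4a1a and fech are all known from anaemic or porphyric zebrafish.

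The name of population 1 was checked against 7 embryonic globin genes, whose mean level, as log2(TPM + 1), was 11.22 in population 1 and at most 1.35 in any other population. Across all 14 globin genes of the table, the 5 cells of population 1 held 3.82% to 16.8% of their TPM in globins. The labels call all of the cells vascular endothelial, but the 6 endothelial markers summed to between 26.4 and 166 TPM in population 1 against between 4005 and 21495 TPM in populations 4 to 7. The 5 macrophage markers summed to between 74.2 and 1229 TPM in population 1 and to between 3404 and 10666 TPM in population 8. In population 1, lcp1 and cxcr3.2 were near 0, with levels of 0.21 and 0.15 on the log2 scale, while cebpa and spi1b had levels of 6.04 and 4.63. The name of population 3 rests on weaker values. Its 4 tailbud markers had a mean level of 1.25, against 0.80 in EPC and 0.72 in epithelial cells. Of these, cdx4 was at 1.46 there, 2.95 in EPC and 2.86 in epithelial cells. Sums in single cells of population 3 reached 14904 TPM for endothelial and 47050.5 TPM for epidermal markers. The cells of population 1 had between 5041 and 6463 genes above 1 TPM, against a median of 5101.0 in the other 91 cells. Read depth is not known from TPM.

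All 8 genes had their highest level in population 1. A level here is the mean of log2(TPM + 1) over the cells of a population, computed for each stage separately, with both stages weighted equally. The difference from the mean of populations 2 to 8 ranged from 4.47 for fech to 10.82 for klf17 on this scale, and its median over the 8 genes was 7.41, beside -0.21 over all genes tested. All 8 were at least 2 higher in population 1, where 12.3% of the genes tested were. Against the EPC alone, 8 of 8 were at least 2 higher, beside 12.0% of genes, and against macrophages 7 of 8 were, beside 10.5%, with urod as the exception. At both stages, the level in population 1 exceeded the level in every other population for each of the 8 genes. The share of all genes tested that were highest in population 1, in total or at both stages, was not computed.

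**Figure D1:**
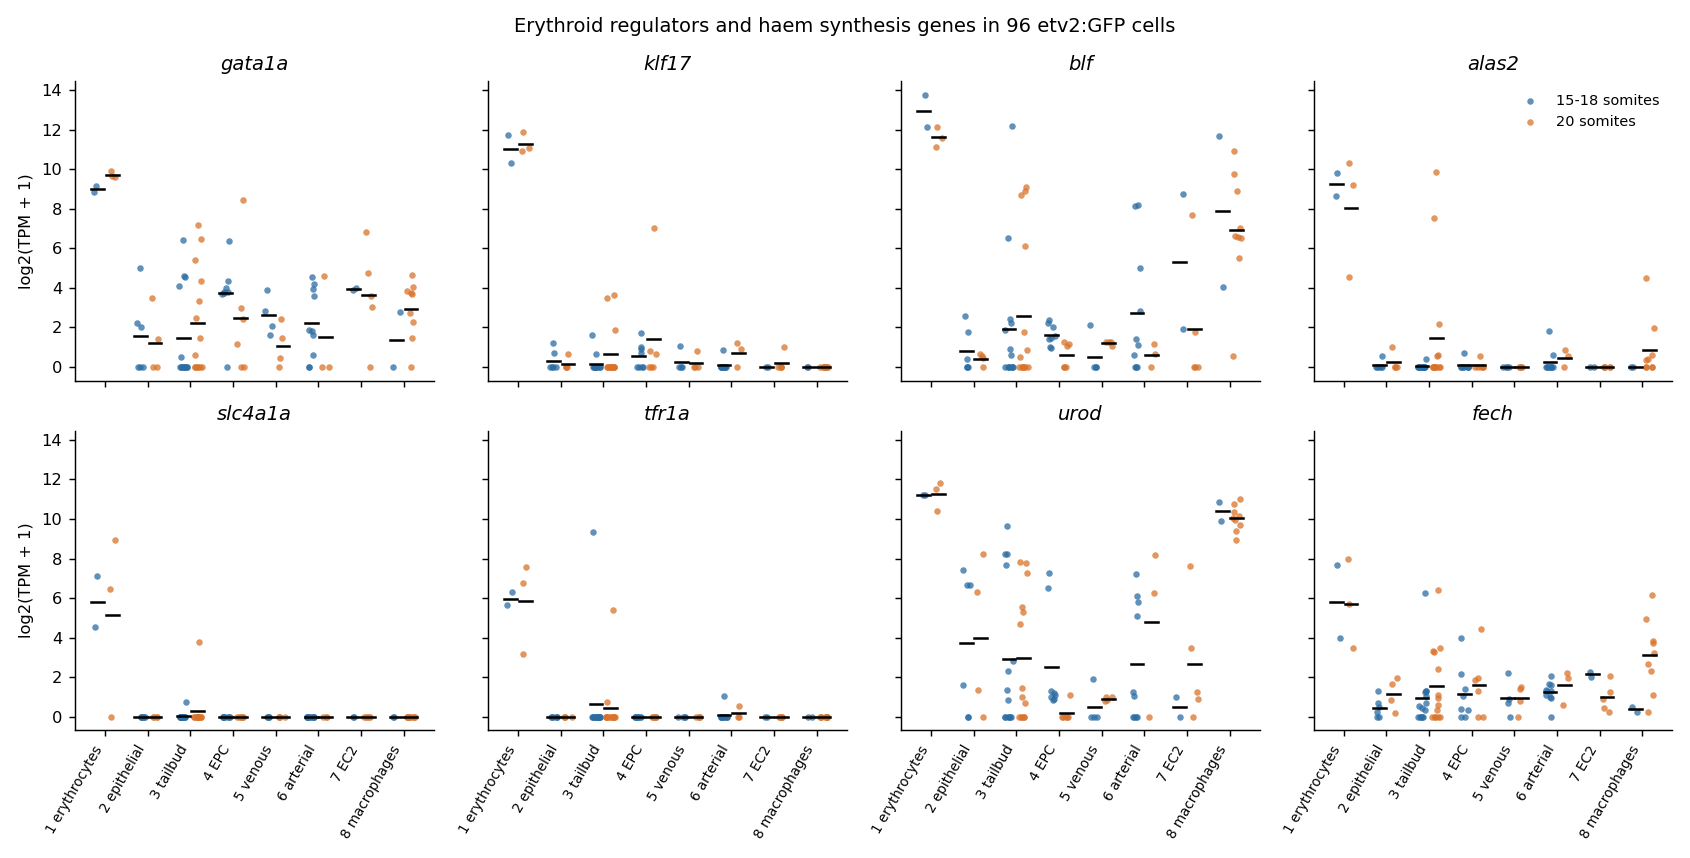
Level of each of the 8 genes in single cells, as log2(TPM + 1) on the vertical axis, by population on the horizontal axis; each point is 1 cell, blue for 15-18 somites and orange for 20 somites, and black bars are the means of each population and stage. Population 1 is highest for all 8 genes, while macrophages follow at 10.21 for urod and 7.39 for blf.

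gata1a, which encodes the main transcription factor of the erythroid lineage (ENSDARG00000013477), was at 462 and 568 TPM in the 2 cells of population 1 from 15-18 somites and at 766, 948 and 791 TPM in the 3 cells from 20 somites. Its level was 9.35 ± 0.41 (SD over the 5 cells). The highest cell exceeded the lowest by 2.05-fold, the narrowest range of the 8 genes, and all 5 cells stood above each of the other 91 cells. Outside population 1, gata1a was detected widely but low, above 1 TPM in 56 of 91 cells (61.5%, 95% Clopper-Pearson interval 50.8% to 71.5%, which covers the counting of cells only), with a median of 3.18 TPM. It exceeded 100 TPM in 3 of them, at 344 TPM in an EPC cell of 20 somites, 144 TPM in a cell of population 3 and 113 TPM in an EC2 cell.

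Low values of gata1a were seen in vascular and other populations. In the vascular populations 4 to 7, 31 of 42 cells exceeded 1 TPM (73.8%, 58.0% to 86.1%), and in the epithelial cells, which are not a blood type, 5 of 10 did (50.0%, 18.7% to 81.3%). These intervals overlap. At the higher limit of 10 TPM, 19 of 42 vascular cells (45.2%, 29.8% to 61.3%) and 2 of 10 epithelial cells (20.0%, 2.52% to 55.6%) exceeded it. Macrophages had a like share, 5 of 11 (45.5%, 16.7% to 76.6%), and population 3 had 8 of 28 (28.6%, 13.2% to 48.7%). The vascular cells above 10 TPM included 7 of 8 EPC of 15-18 somites (87.5%, 47.3% to 99.7%). At 20 somites they included 1 of 6 EPC (16.7%, 0.42% to 64.1%), and both intervals overlap. The contrast depends on the limit, since the median over the 8 EPC of 15-18 somites was 12.96 TPM. Above 1 TPM the counts were 7 of 8 and 4 of 6. Of the other vascular cells, 5 of 7 EC2, 5 of 13 arterial and 1 of 8 venous cells exceeded 10 TPM. The source of the low values was not tested. The order of levels after population 1 was EC2 (3.79), EPC (3.11), macrophages (2.15), arterial (1.87), venous (1.84), population 3 (1.84) and epithelial (1.38), and the ranges over both stages overlapped between each of these neighbours.

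klf17, a Krüppel-like factor of primitive erythropoiesis in zebrafish (ENSDARG00000038792), was at 1269.6 and 3364 TPM in the 15-18 somite cells of population 1 and at 2152, 3775 and 1920.1 TPM in the 20 somite cells. Its level was 11.15 ± 0.64 (SD over the 5 cells). It separated population 1 most widely: the lowest of the 5 cells was above every other cell, and the next level, in EPC, was 0.98. Outside population 1, klf17 exceeded 1 TPM in 10 of 91 cells (11.0%, 5.40% to 19.3%) and 10 TPM in 3, with 131 TPM in an EPC cell of 20 somites, 11.4 TPM and 10.05 TPM in cells of population 3. It was listed at 0 in all 11 macrophages.

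gata1a and klf17 were the only members whose 5 values in population 1 did not overlap with any of the 91 other cells, 2 of 8, beside 0.132% of the genes tested (20 of 15147). From the 15-18 somite cells alone, with 2 cells in population 1, 5 of 8 did not overlap, beside 0.528% of the genes, and from the 20 somite cells alone 3 of 8, beside 0.350%. With population 3 left out, an alternative chosen after seeing the data, alas2 and tfr1a joined them, giving 4 of 8, beside 0.198%.

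blf, the zinc finger gene bloody fingers of embryonic blood (ENSDARG00000043126), had the highest level of the 8 genes in population 1. It was at 4416 and 13919 TPM in the 15-18 somite cells and at 3088, 2213 and 4439.8 TPM in the 20 somite cells, with a level of 12.27 ± 1.0 (SD over the 5 cells). The same gene was also found in macrophages, where it was at 15.4 and 3315 TPM in the 2 cells of 15-18 somites and had a minimum of 0.45, a median of 96.8 and a maximum of 1903 TPM over the 9 cells of 20 somites. It exceeded 10 TPM in 10 of 11 macrophages (90.9%, 58.7% to 99.8%) and in 11 of 80 cells of populations 2 to 7 (13.8%, 7.07% to 23.3%).

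The macrophage values of blf reached into the range of population 1 in 1 cell, and a cell of population 3 with 4641 TPM lay within that range also. The level in macrophages was 7.39, that is 4.88 below population 1 and 5.71 above the mean of populations 2 to 7. EC2 followed at 3.61, and the ranges over both stages did not overlap between erythrocytes, macrophages and EC2. Globins summed to between 0 and 442 TPM in the macrophages, with a median of 23.7 TPM, against at least 38160 TPM in each cell of population 1. The macrophage with 3315 TPM of blf had 364 TPM of globins, and the next, with 1903 TPM of blf, had 5.24 TPM of globins. blf belongs to a family with similar neighbours such as drl, and whether reads were divided between such copies was not tested.

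alas2, the erythroid form of the enzyme that starts haem synthesis and sets its rate (ENSDARG00000038643), was at 403.5 and 908 TPM in the 15-18 somite cells of population 1 and at 22.8, 1281 and 596 TPM in the 20 somite cells. Its level was 8.64 ± 2.30 (SD over the 5 cells), and 1 cell of 20 somites was low, 56.3-fold below the highest. Outside population 1, alas2 exceeded 1 TPM in 7 of 91 cells (7.69%, 3.15% to 15.2%), and the highest values were 927 and 184 TPM in cells of population 3 and 21.9 TPM in a macrophage. The first pair of these overlapped with the range of population 1. It was at or below 0.65 TPM in all 14 EPC and listed at 0 in all 8 venous and 7 EC2 cells.

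The ubiquitous counterpart alas1 had another distribution. It was at 0 in the lowest cell of population 1, with a median of 1.69 TPM and a maximum of 104 TPM, and its level was 0.89 below the mean of the other populations. The highest level of alas1 was in macrophages (6.39), whose median was 101 TPM, followed by epithelial cells (5.67).

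urod, the uroporphyrinogen decarboxylase gene of the middle of the pathway (ENSDARG00000006818), was at 2402 and 2384 TPM in the 15-18 somite cells of population 1 and at 1340.3, 3631 and 2969 TPM in the 20 somite cells. Its level was 11.24 ± 0.54 (SD over the 5 cells). Macrophages came close: urod was at 943 and 1877 TPM in the 2 cells of 15-18 somites and had a minimum of 489, a median of 1064 and a maximum of 2031 TPM over the 9 cells of 20 somites.

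The cells of both populations overlapped for urod, with 3 macrophages at or above the lowest cell of population 1. The difference of level was 1.03, and its range was 0.89 to 1.25 when each cell of population 1 was left out in turn. All 11 macrophages exceeded 100 TPM, against 14 of 80 cells in populations 2 to 7, and the macrophage level exceeded the mean of those populations by 7.85. Of the 8 genes, urod and blf were at least 2 higher in macrophages than in populations 2 to 7, beside 9.70% of the genes tested. The other 6 genes differed by between -0.39 and 0.53 there.

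Outside both blood populations, urod was detected in part of the cells of most populations. It exceeded 10 TPM in 25 of 80 cells of populations 2 to 7 (31.2%, 21.4% to 42.6%), among them 5 of 10 epithelial, 10 of 28 population 3 and 6 of 13 arterial cells, but 0 of 8 venous cells. The highest of these was at 795 TPM. This differed from alas2, which exceeded 10 TPM in 2 of the same 80 cells.

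fech, which encodes the enzyme that inserts iron into protoporphyrin (ENSDARG00000003462), was at 202 and 14.6 TPM in the 15-18 somite cells of population 1 and at 10.1, 253 and 50.9 TPM in the 20 somite cells. Its level was 5.77 ± 2.06 (SD over the 5 cells), with a 25.0-fold range. Its difference from the mean of the other populations, 4.47, was the smallest of the 8 genes, and 9 other cells were at or above its lowest value in population 1. Against the next highest population alone, urod differed less, by 1.03 against 4.01 for fech. Outside population 1, fech exceeded 1 TPM in 46 of 91 cells but 10 TPM in only 9, and the highest was at 84.9 TPM in population 3. Macrophages came next in level (1.76), at 0.37 for 15-18 somites and 3.14 for 20 somites, and their range over both stages overlapped with that of EC2 (1.56).

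The remaining enzymes of the pathway were read from a list of 10 genes, of which 7 were found and passed the limit on low values. Of these 7, 6 were at least 2 higher in population 1, beside 12.3% of the genes tested, and none was at least 2 lower. Besides alas2, urod and fech these were cpox, hmbsb and uros, which encode coproporphyrinogen oxidase, hydroxymethylbilane synthase and uroporphyrinogen synthase. Without the members the count was 3 of 4. cpox had the highest level of the list in population 1 (11.42), with a minimum of 2189, a median of 2611 and a maximum of 3559 TPM, and no other cell reached its lowest value. hmbsb had a level of 9.14, between 299 and 1077 TPM, and uros one of 7.29, between 38.4 and 460 TPM. Macrophages had levels of 3.38 for cpox, 1.06 for hmbsb and 0.96 for uros, against 10.21 for urod, so that among the enzymes measured urod and alas1 were at least 2 higher there than in populations 2 to 7.

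tfr1a, the transferrin receptor of erythroid iron uptake (ENSDARG00000058784), was at 77.4 and 48.4 TPM in the 15-18 somite cells of population 1 and at 108, 191 and 8.09 TPM in the 20 somite cells. Its level was 5.90 ± 1.67 (SD over the 5 cells), with 1 low cell of 20 somites. Outside population 1 it was rarely detected, above 1 TPM in 3 of 91 cells (3.30%, 0.69% to 9.33%), of which a cell of population 3 from 15-18 somites had 637 TPM, above all 5 cells of population 1, and another of 20 somites had 41.2 TPM. It was listed at 0 in all epithelial, EPC, venous, EC2 and macrophage cells. The related tfr1b was listed at 0 in all 5 cells of population 1.

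Of a list of 20 genes of iron uptake, transport and storage, 13 were found and 12 passed the limit. Of the 12, 9 were at least 2 higher in population 1, beside the 12.3% of all genes, with a median difference of 3.64. Without the member tfr1a it was 8 of 11. tfr1a and steap3 passed the limit only with the cells of population 1. The highest levels in population 1 were those of the ferritin heavy chain gene fth1a (10.79), of glrx5 (9.03), a glutaredoxin of mitochondrial iron-sulphur cluster assembly, and of the ferritin gene fthl27 (8.84). The lowest differences were those of fthl27 (-1.48), which was higher still in macrophages (12.65), and of the iron exporter gene slc40a1 (-0.44). Outside that naming rule, and chosen after their values were seen, the iron importer gene slc11a2 was at 79.4 to 696 TPM in population 1 (difference 6.90), the mitochondrial transporter gene abcb10 at 60.9 to 477 TPM (6.69) and the mitoferrin gene slc25a37 at 1.80 to 128 TPM (4.48).

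slc4a1a, the band 3 anion exchanger gene (ENSDARG00000012881), was at 137 and 22.0 TPM in the 15-18 somite cells of population 1 and at 87.8, 490 and 0 TPM in the 20 somite cells. Its level was 5.48 ± 3.41 (SD over the 5 cells), the widest spread of the 8 genes, with 1 cell of 20 somites listed at 0. Outside population 1 it exceeded 1 TPM in 1 of 91 cells (1.1%, 0.03% to 5.97%), at 12.9 TPM in population 3. It was listed at 0 in all cells of the 6 remaining populations.

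Of 16 genes of the red cell membrane and its skeleton, 10 were found and 8 passed the limit. Of these 8, 5 were at least 2 higher in population 1, beside 12.3% of the genes tested, with a median difference of 3.77. Without the member slc4a1a it was 4 of 7. slc4a1a and cahz passed the limit only with the cells of population 1, as did kel, which was not among the genes at least 2 higher (difference 1.45). The highest levels were those of the carbonic anhydrase gene cahz (9.57), which hydrates the carbon dioxide that band 3 helps to export, and of the membrane skeleton genes epb41b (8.08) and sptb (6.38). For cahz and epb41b no other cell reached the lowest cell of population 1, at 356 and 177 TPM. The lowest differences were those of gypc (0.24) and dmtn (0.40). Among 5 genes of a further, mixed list that passed (bpgm, hebp2, nt5c3a, gpx1a and alox12), none was at least 2 higher, and alox12 was 2.25 lower in population 1.

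Of 21 erythroid and other blood regulators, 19 were found and 18 passed. Of the 18, 11 were at least 2 higher in population 1, beside 12.3% of the genes tested, with a median difference of 3.44. Without the members gata1a, klf17 and blf it was 8 of 15. The difference is from a mean of populations, and tal1, klf3 and myb, which are among the 11, had their highest level elsewhere. tal1 was at 9.17 in population 1 and 10.07 in EPC, klf3 at 7.72 and 8.29 in EC2, and myb at 7.51 and 7.85 in macrophages. Of the 11, gfi1aa passed the limit only with the cells of population 1. The highest levels were those of blf, klf17 and gata1a. The lowest differences were those of gata2a (-1.15), a factor also of endothelium, and of gata1b (-0.61), the second zebrafish copy of gata1, which reached at most 8.11 TPM in population 1. The Krüppel-like genes differed among themselves: klf17 had a level of 11.15 in population 1, klf3 one of 7.72 and klf1 one of 1.24. Chosen after their values were seen, drl (level 8.94, difference 7.06) and myb (7.51, 6.12) shared with blf and urod a high level in macrophages, at 5.16 and 7.85.

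**Figure D2:**
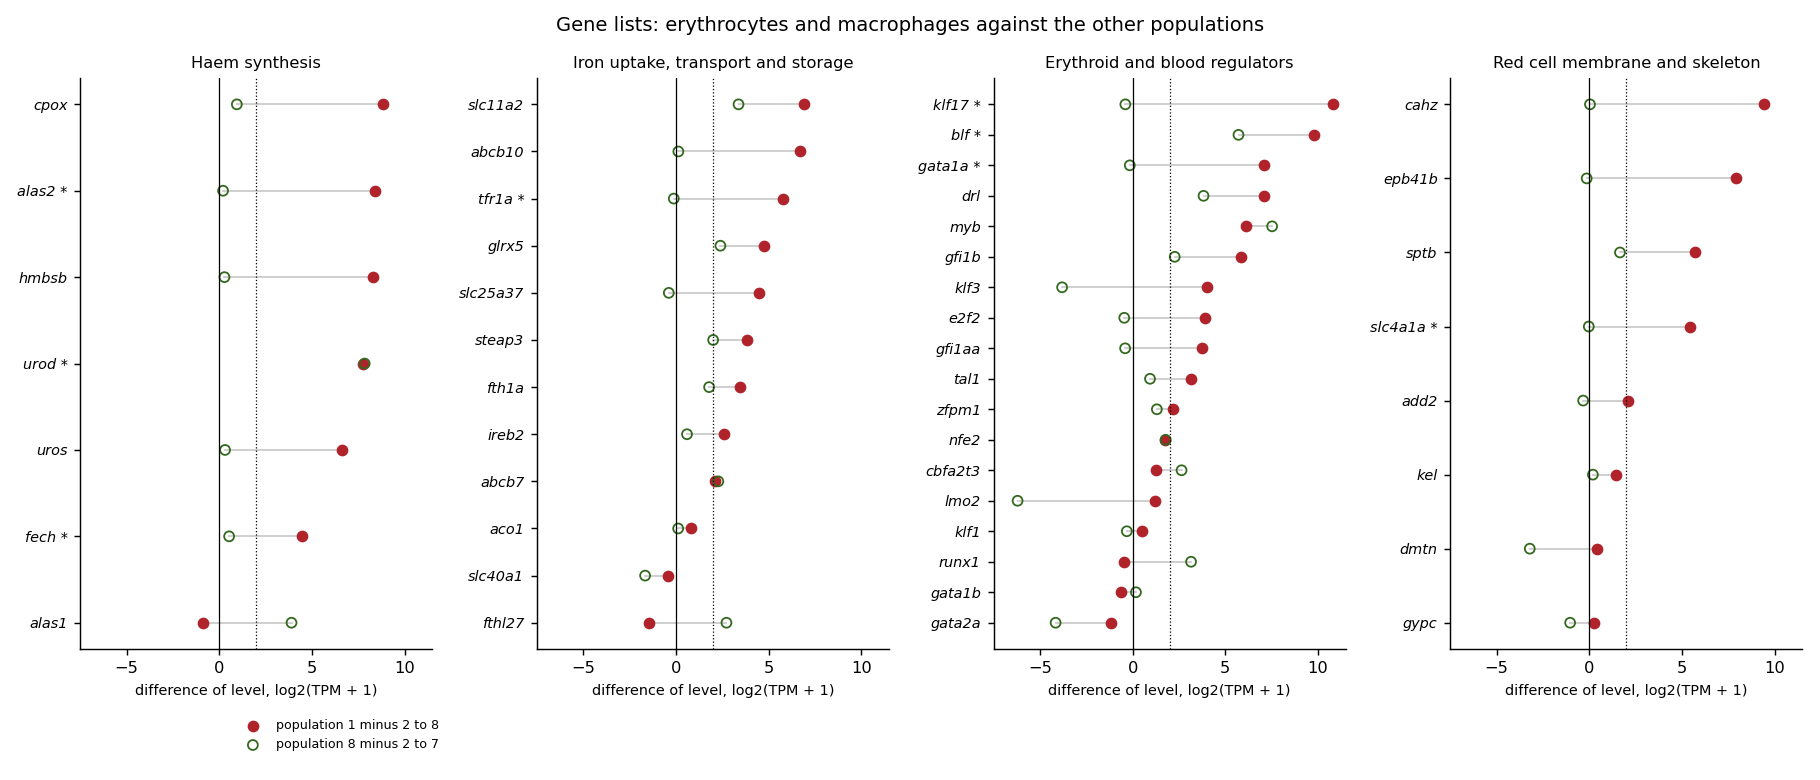
Difference of level, on the log2(TPM + 1) scale, for the genes of 4 lists that passed the limit on low values; filled red points are population 1 minus the mean of populations 2 to 8, open green circles are population 8 minus the mean of populations 2 to 7, the dotted line marks a difference of 2, and an asterisk marks the 8 genes of the report. Of the haem synthesis genes 6 of 7 lie beyond the dotted line in population 1, and the open circles of urod and alas1 lie beyond it as well, at 7.85 and 3.90.

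The 8 genes differed in how evenly the 5 cells of population 1 expressed them. In gata1a, urod and klf17 the highest cell exceeded the lowest by 2.05-fold, 2.71-fold and 2.97-fold, and in blf by 6.29-fold. In tfr1a, fech and alas2 the ratio was 23.6-fold, 25.0-fold and 56.3-fold. For slc4a1a, with the widest spread, no ratio could be formed, since 1 cell was listed at 0 and the highest was at 490 TPM. tfr1a, fech, alas2 and slc4a1a have lower levels than the other 4, and the sampling of few molecules per cell could not be assessed without read counts.

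The high and low values fell in particular cells. The second cell of 20 somites was the highest of the 5 for 7 of the 8 genes and the lowest for blf, and it also had the highest share of globins (16.8% of its TPM). The first cell of 20 somites was the lowest for alas2, urod and fech and had 4.42% in globins. The last cell of 20 somites was the lowest for slc4a1a and tfr1a and had 3.82% in globins. Of the 15-18 somite cells, the first was the lowest for gata1a and klf17 and had 11.6% in globins, and the second was the highest for blf and had 12.4%. Removal of the globin genes and rescaling changed neither the count of 8 genes at least 2 higher nor that of 6 haem synthesis genes. With 5 cells, no correlation was computed. Macrophage markers summed to 854 and 1229 TPM in the first and last cell of 20 somites, against 74.2 TPM in the second, and to 136 and 410 TPM in the cells of 15-18 somites, and their part in the low values was not tested.

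**Figure D3:**
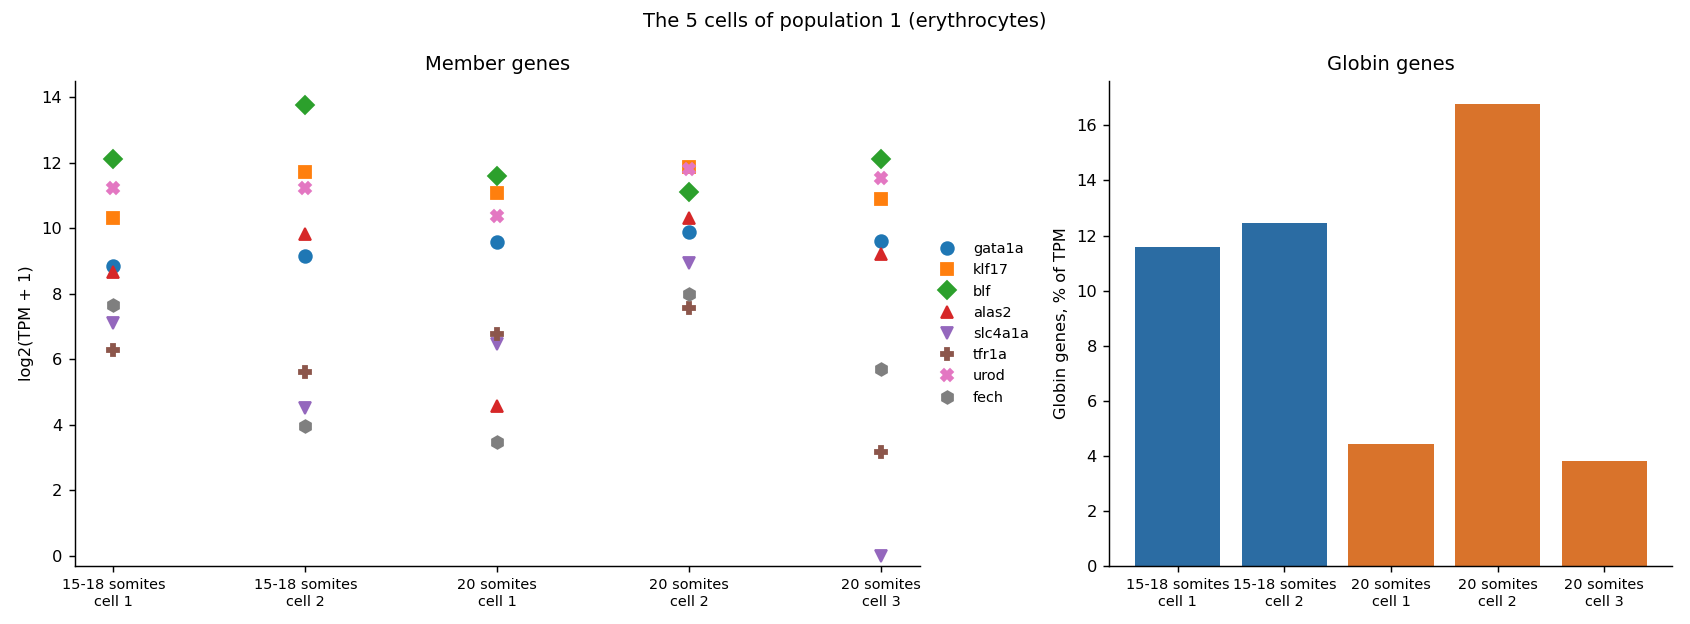
The 5 cells of population 1: left, level of the 8 genes as log2(TPM + 1), 1 symbol per gene; right, percent of each cell's TPM in 14 globin genes, as bars from 0, blue for 15-18 somites and orange for 20 somites. The second cell of 20 somites has the highest globin share, 16.8%, and the highest value of 7 of the 8 genes, whereas alas2 is low in the first and slc4a1a is 0 in the last.

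Between the stages, 20 minus 15-18 somites, the level in population 1 differed by 0.70 for gata1a, 0.27 for klf17, 0.03 for urod, -0.09 for fech, -0.12 for tfr1a, -0.68 for slc4a1a, -1.20 for alas2 and -1.33 for blf. None of the 8 was at least 1 higher at 20 somites, beside 24.1% of the genes tested, and alas2 and blf were at least 1 lower, beside 16.5%. The median over the 8 genes was -0.10, and it became -1.03 without the second cell of 20 somites. The values of both stages overlapped for each gene except gata1a, whose 3 cells of 20 somites all lay above the 2 of 15-18 somites. How many of all genes separate the stages in this way was not counted. With so few cells, the separation of gata1a is given as its values only. For blf the overlap was narrow, with 1 cell of 20 somites (4439.8 TPM) just above the lower of the 15-18 somite cells (4416 TPM). Without the first cell of 20 somites the difference of alas2 turned to 0.53. The sign also depended on single cells for klf17 (-0.43 to 0.98 with each cell left out in turn), slc4a1a (-2.58 to 1.89), tfr1a (-0.98 to 1.21), urod (-0.26 to 0.46) and fech (-1.94 to 1.76). It stayed the same for gata1a (0.55 to 0.84) and blf (-2.16 to -0.50). With 2 and 3 cells from 1 pool each, these values describe the cells captured.

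Cells outside population 1 that carried several erythroid transcripts were counted over gata1a, klf17, blf, alas2 and slc4a1a. All 5 cells of population 1 had at least 4 of these 5 genes above 10 TPM. Of the other 91 cells, 42 had at least 2 above 1 TPM (46.2%, 35.6% to 56.9%), among them 2 of 10 epithelial cells. With the limit at 10 TPM this fell to 12 of 91 (13.2%, 7.0% to 21.9%), which were 6 of 28 cells of population 3, 5 of 11 macrophages and 1 of 7 EC2 cells. It was 0 of the 45 epithelial, EPC, venous and arterial cells, a set made up of the populations where no cell passed. The upper limits on this set, 6.67% (3 cells of the total, counting error only) and 7.87% (Clopper-Pearson), are therefore no bound on a group fixed beforehand. In the vascular populations 4 to 7 it was 1 of 42 (2.38%, 0.06% to 12.6%).

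Of these 12 cells, 11 had blf above 10 TPM. gata1a with blf was found in 7, blf with alas2 in 3, the 3 regulators gata1a, klf17 and blf in 1 and klf17 with slc4a1a in 1. Of the 7, the macrophages and the EC2 cell had gata1a at 11.8 to 24.0 TPM, some close to the limit of 10 TPM. The cells of population 3 among the 7 had 40.9 and 84.3 TPM. The 3 cells outside population 1 with alas2 above 10 TPM all had blf above 10 TPM, at 481, 538 and 1903 TPM, whereas gata1a was at most 1.77 TPM in them. No cell outside population 1 combined gata1a, klf17 and alas2 above 10 TPM (0 of 91, which allows up to 3.30% by the same count of 3 cells).

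Population 3 held the highest values outside population 1 of blf, alas2, slc4a1a, tfr1a and fech. One cell of 15-18 somites had 4641 TPM of blf, 637 TPM of tfr1a, 296 TPM of urod and 84.3 TPM of gata1a, but was listed at 0 for klf17, alas2, slc4a1a and fech. Its globins summed to 5215 TPM, and its endothelial and macrophage markers to 1105 and 562 TPM. A cell of 20 somites had 927 TPM of alas2 and 538 TPM of blf with 5876 TPM of globins, and 0.54 TPM of gata1a. These cells thus carried different parts of the set, with blf in common. They had 4206 and 3837 genes above 1 TPM. Population 3 was the largest population, with 28 cells, and had the lowest median number of genes, 3960.5. The part of this in its high values and its values of 0 was not tested.

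The cell of population 3 with the most globin, 20439 TPM or 2.04% of its TPM, had only 40.9 TPM of gata1a, 67.3 TPM of blf and 0.51 TPM of alas2, and none of klf17. A further cell of 20 somites had 481 TPM of blf, 184 TPM of alas2 and 41.2 TPM of tfr1a, with 4.05 TPM of globins and a macrophage marker sum of 2021 TPM. The cell with klf17 and slc4a1a, at 11.4 and 12.9 TPM, had all 6 endothelial markers above 10 TPM, which summed to 14003 TPM. It also had 5 epidermal and 3 macrophage markers above 10 TPM, with sums of 4405 and 235 TPM over these lists. It had 3052 genes above 1 TPM. Globins exceeded 100 TPM in 11 of the 91 cells, and 6 of those 11 were among the 12 cells with at least 2 of the 5 genes. Whether 2 cells had shared a capture chamber, or free RNA had entered, was not tested.

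**Figure D4:**
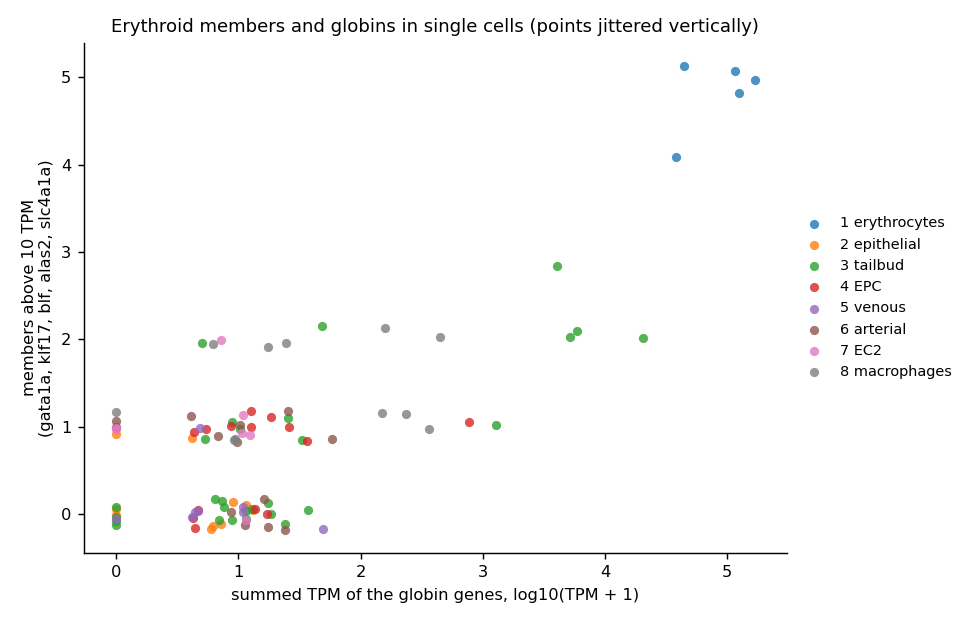
Each point is 1 of the 96 cells: on the horizontal axis its summed TPM of 14 globin genes as log10(TPM + 1), on the vertical axis how many of gata1a, klf17, blf, alas2 and slc4a1a exceeded 10 TPM, with points shifted slightly up or down, coloured by population. The 5 cells of population 1 have 4 or 5 of the genes, and of the other 91 cells 1 has 3 and 11 have 2.

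Over the 16 means of population and stage, the genes most like each member were found by Pearson correlation among 15147 genes. The values are a description over points that share cells and 2 samples. For slc4a1a, tfr1a and alas2 these included cahz (0.997, 0.995 and 0.997). The globin gene HBM and nt5c2l1 were both among the 3 most like klf17 (0.995 and 0.994), slc4a1a (0.996 and 0.996) and tfr1a (0.997 and 0.996). For klf17 the next was RELL2 (0.993), and for alas2 the others were hbbe1.1 and rfesd (0.995 and 0.995). The gene most like fech was cpox (0.963), another enzyme of the pathway, before ENSDARG00000089693 (0.957) and lyrm7 (0.955). blf was most like AFF2 (0.969), drll.1 (0.965) and DHRS1 (0.952), and gata1a was most like ENSDARG00000089665 (0.963), GINS4 (0.942) and SLC38A5 (0.941). urod stood apart, being most like myb (0.940), which was also high in macrophages, and then ENSDARG00000028249 (0.934) and si:dkey-237j10.2 (0.932). Among the members themselves the highest correlation was that of slc4a1a with tfr1a (0.995) and the lowest that of gata1a with urod (0.564). Genes high mainly in population 1 correlate closely over these means, so the values largely restate that difference and do not show shared expression cell by cell. Over the 91 cells outside population 1, member pairs ranged from -0.16 (klf17 with urod) to 0.39 (blf with tfr1a). There slc4a1a with tfr1a, both rarely detected, had -0.02, and gata1a with urod had -0.07.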

How the data were processed

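Per the labels and the study's methods, GFP+ cells were sorted, captured on the Fluidigm C1 system and sequenced, and the authors quantified transcripts with kallisto against Ensembl release 72 (zebrafish build Zv9). The deposited TPM table (27931 genes, 96 cells) sums to 1000000 TPM per cell, so that reads per cell are unknown. The populations come from the deposited grouping, which the authors obtained by clustering these cells. Gene symbols were looked up first in the authors' marker list, through which tfr1a was matched, and then in a reference list of gene names. Since the marker list was chosen on these cells, membership in it is no support. Whether this order affected which listed genes were found was not tested. A filtered copy of the table was not used.

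Gene names were available for 71.7% of the IDs. log2(TPM + 1) was averaged over the cells of each population and stage, a scale that understates changes of low genes. Genes above 1 TPM in at least 5 cells were compared, with a limit of 2 between populations and 1 between stages (Python 3.11.15, pandas 2.3.3, scipy 1.17.1, tested on simulated data). No p-values were computed, since cells are not replicates and each stage is 1 sample. Doublets were not called. The 8 genes and the lists were chosen with earlier results of these data known. All 8 genes were named, of each list the 3 genes with the highest level in population 1 and the 2 with the lowest difference, and for each of the 8 the 3 most correlated genes. Alternatives were other pseudocounts, filters and detection limits, log2 of the mean TPM, single stages, globins removed, shallow cells removed, each cell of population 1 left out, and population 3 left out, the last chosen after seeing the data. No coordinates or sequences are given because no genome of this build was used here.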

Additional observations from a re-analysis of the deposited data

How the results depend on the processing

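The count of 8 genes at least 2 higher in population 1, and that of 6 haem synthesis genes, were the same under all 18 alternatives. The median difference of the 8 genes, 7.41, became 9.005 with a pseudocount of 0.1, 5.30 with a pseudocount of 10 and 6.57 from the log2 of mean TPM, and lay between 7.32 and 7.53 when each cell of population 1 was left out. The number of genes without overlap, 2, became 5 from 15-18 somites alone (0.528% of all genes, against 0.132%) and 4 without population 3 (0.198%), and was 2 to 3 with a cell left out. Of the cells outside population 1 with at least 2 of 5 erythroid genes above 1 TPM, 42, there were 19 from 15-18 somites alone, 23 from 20 somites alone, 12 above 10 TPM and 8 when 3 genes were required. The median stage difference, -0.10, ranged from -1.03 to 0.42 with a cell left out, and that of alas2, -1.20, reversed to 0.53 without the cell of 20 somites with 22.8 TPM and was -2.35 without that with 1281 TPM. Of 83 values of these summaries under the alternatives, 10 moved beyond the limit set for them. Of 352 values of single genes, 318 moved by less than the spread between cells, 33 by more, and 1, that of alas2, reversed. That spread was the SD over the 5 cells of population 1, a wide limit for some genes. With an SD of 3.41, the difference of slc4a1a fell from 5.45 to as low as 2.87 and still counted as moving by less. A reversal was counted only where the main value reached the limit of 2 between populations or 1 between stages. The smaller stage differences of klf17, slc4a1a, tfr1a, urod and fech also changed sign with a cell left out, without being counted as reversed. No paired analysis was possible because no result comes from a test and the stages are 1 sample each; differences between populations were taken within each stage and averaged. The 5 cells of population 1, the unknown read depth and the unknown number of molecules limit what can be said of low values.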
